A study of Mus musculus with 48 samples.

Results

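Loss of FOXD3 and loss of OCT4 were compared gene by gene in mouse embryonic stem cells (ESCs), 24 h after each depletion began. In the first experiment, cycling FOXD3-iKO cells, an inducible FOXD3 knockout line, had received 4-hydroxytamoxifen (4HT, 2 libraries) or its solvent ethanol (EtOH, 2 libraries) 24 h earlier. In the second, cycling OCT4-tetOff cells, in which OCT4 is under a doxycycline-repressed system, had received doxycycline (DOX, 2 libraries) or water (H2O, 2 libraries) for the same time. All 4 groups were grown in L2i medium and labelled with 4-thiouridine (4SU) for 30 min, and the 4SU-labelled RNA was sequenced. The 8 libraries were chosen by their labels from the 48 of the series. The 2 count tables were joined on gene identifier, and 18437 of 54752 genes passed the filter on low counts and were tested. For each gene 3 quantities were estimated, all as log2 ratios: the FOXD3 response (4HT over EtOH), the OCT4 response (DOX over H2O), and the difference, FOXD3 response minus OCT4 response. Genes were then sorted. Shared genes were called in both responses with the same sign, opposite genes in both with opposite signs, and factor-specific genes in 1 response with the difference called as well. Genes called in 1 response with the difference not called were left unresolved. The labels do not give the part of Foxd3 that is removed, the driver of the recombinase or the construct that carries OCT4, nor whether either line is a single clone.

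FOXD3 is a forkhead transcription factor of pluripotent cells and of the neural crest, and has been described in ESCs both as an activator and as a repressor of enhancers. OCT4, encoded by Pou5f1, is the POU factor on which the pluripotent state depends, and its loss from mouse ESCs is known to lead towards trophectoderm-like cells. A short pulse of 4SU marks RNA made during the pulse, so the values follow ongoing transcription more closely than the RNA a cell has stored.

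Totals ran from 21267401 to 30406124 counts per library, so that 3 counts correspond to 0.0987 to 0.141 CPM, counts scaled to a common library size. Gm26917 and Gm42418, where ribosomal RNA reads are assigned, held 29.1 and 31.2% of counts with 4HT, 29 and 31.8% with EtOH, 21.0 and 18.1% with DOX, and 27.3 and 26% with H2O. Cell line, added agent, solvent and library numbering changed between the 2 experiments together with the factor removed, so their parts in any difference between the responses cannot be told apart. No label says whether the replicates were separate cultures, and the p-values therefore measure the spread between these libraries, which may be technical. As a check of the labelled cell type, 6 ESC markers summed to 1870 to 2000 CPM with 4HT, 1930 to 1980 CPM with EtOH, 755 to 869 CPM with DOX and 2130 to 2160 CPM with H2O. Of these markers Sox2 was at 0 counts in all 8 libraries, and its interval lies inside that of Sox2ot on the same strand. The 7 primitive endoderm markers summed to 36.7 to 37.0 CPM with 4HT, against 30.1 to 34.2 CPM with EtOH, and to 56.6 to 61.5 CPM with DOX, against 13.6 to 14.8 CPM with H2O. Of 15 blood and endothelial markers Hba-a1 and Hbb-bt were at 0 in every group and Ptprc in all but the H2O group. Together these markers summed to between 85.6 and 168 CPM in the 8 libraries. Of 15 fibroblast markers Lum and S100a4 were at 0 in every group. The 15 summed to 538 to 547 CPM with 4HT, against 543 to 562 CPM with EtOH. In the OCT4-tetOff cells they summed to 398 to 403 CPM with DOX, against 587 to 662 CPM with H2O. The 10 trophectoderm markers summed to 111 to 121 CPM with 4HT, against 82.9 to 87.3 CPM with EtOH. With DOX they summed to 138 to 169 CPM, against 71.4 to 77.4 CPM with H2O. In bulk libraries fewer cells of a type and less RNA per cell cannot be told apart.

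First come the depleted genes. Foxd3, on the plus strand of mm10 chromosome 4 (99656299 to 99658622; ENSMUSG00000067261.4), stood at 3.35 and 3.41 CPM with 4HT, against 8.47 and 10.1 CPM with EtOH. In the OCT4-tetOff cells it stood at 2.92 and 1.93 CPM with DOX, against 21.7 and 20.6 CPM with H2O. Nascent Foxd3 thus fell in both experiments, with every depleted library below its controls, and it ended at a similar level although the H2O cells started higher than the EtOH cells. The FOXD3 response of Foxd3 was -1.45 ± 0.18 (log2, SE; edgeR adjusted p = 0.031) and its OCT4 response -3.12 ± 0.18 (adjusted p = 1.6e-06), so the fall was larger after OCT4 loss by 1.67 ± 0.26 (adjusted p = 0.0019). Pou5f1 (ENSMUSG00000024406.16, mm10 chromosome 17, plus strand) had 71.5 and 73.0 CPM with 4HT, against 77.9 and 85.9 CPM with EtOH, and 60.3 and 47.4 CPM with DOX, against 201 and 180 CPM with H2O. Its OCT4 response was -1.82 ± 0.14 (log2; edgeR adjusted p = 7.8e-06), and its FOXD3 response was -0.18 ± 0.13 (adjusted p = 0.94). The difference for Pou5f1 was 1.64 ± 0.19 (adjusted p = 0.00034). Loss of OCT4 was thus accompanied by a fall of nascent Foxd3, while a change of Pou5f1 after FOXD3 loss was not detected at this spread.

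The OCT4 response was the wider of the 2 by far. In the joint fit of the 8 libraries 6316 genes, 34.3% of those tested, were called after OCT4 loss, 3077 higher and 3239 lower (16.7 and 17.6%). After FOXD3 loss 11 genes were called (0.0597%), 8 higher and 3 lower (0.0434 and 0.0163%), and 1287 had an unadjusted p under 0.05. The difference between the responses was called for 3039 genes (16.5%), of which 1674 were higher (9.08%) and 1365 lower (7.4%) on the FOXD3 side. Sorting gave 7 shared genes, 1 opposite gene, 1 FOXD3-specific gene and 2938 OCT4-specific genes (1340 higher and 1598 lower after OCT4 loss). A further 2 genes called after FOXD3 loss and 3370 called after OCT4 loss were unresolved, and 12118 were called in neither response. Without any 1 of the 4 FOXD3-iKO libraries no gene was called after FOXD3 loss, and the difference was called for 1438 to 1995 genes; without DOX replicate 1 it was called for 4860 genes and without H2O replicate 1 for 1878. Without H2O replicate 1, 3753 genes were called after OCT4 loss. DESeq2 called 45 genes after FOXD3 loss, and with total counts outside the ribosomal RNA genes as the scale none was called.

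Of the 7 shared genes 5 rose and 2 fell. The 7 are 63.6% of the genes called after FOXD3 loss and 0.111% of those called after OCT4 loss. Of all tested genes 16.7% were called higher and 17.6% lower after OCT4 loss. The 7 include Foxd3 itself, the gene depleted in the first experiment, whose fall there follows from the design. Id2, which encodes a protein that blocks DNA binding by basic helix-loop-helix factors (mm10 chromosome 12, 25093799 to 25097140, minus strand), had 19.2 and 20.8 CPM with 4HT, against 5.44 and 6.97 CPM with EtOH. In the OCT4-tetOff cells it had 3.20 and 2.27 CPM with DOX, against 1.77 and 1.24 CPM with H2O. Its log2 response was 1.70 ± 0.18 to FOXD3 loss (edgeR adjusted p = 0.031) and 0.85 ± 0.26 to OCT4 loss (adjusted p = 0.029), and the difference of 0.85 ± 0.32 did not pass the threshold (adjusted p = 0.097). Id2 was therefore raised in both experiments from very different starting levels, without overlap between treated and control libraries in either.

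Mobp, a myelin protein gene (chromosome 9, 120149707 to 120181484, plus strand), moved the same way and more strongly after OCT4 loss. It had 8.73 and 9.19 CPM with 4HT, against 4.39 and 4.49 CPM with EtOH, and 55.0 and 58.1 CPM with DOX, against 17.3 and 16.6 CPM with H2O. The responses were 1.01 ± 0.12 (edgeR adjusted p = 0.031) and 1.74 ± 0.10 (adjusted p = 1.5e-06), and their difference of -0.72 ± 0.15 was called (adjusted p = 0.011). Slc39a14, a zinc and iron transporter (chromosome 14, 70303469 to 70351425, minus strand), had 21.5 and 22.0 CPM with 4HT, against 12.1 and 11.8 CPM with EtOH, and 10.3 in both DOX libraries, against 5.4 and 4.97 CPM with H2O. Its responses of 0.86 ± 0.11 and 0.99 ± 0.12 differed by -0.12 ± 0.16 (edgeR adjusted p = 0.64). The other shared genes that rose, 5830418P13Rik and 9230114K14Rik, have provisional symbols. Stmn2, a regulator of microtubules in neurons (chromosome 3, 8509360 to 8561606, plus strand), was with Foxd3 the shared gene that fell. Stmn2 had 51.8 and 48.2 CPM with 4HT, against 81.4 and 85.1 CPM with EtOH, and 18.5 and 17.9 CPM with DOX, against 119 and 117 CPM with H2O. Its fall after OCT4 loss, 2.69 ± 0.10 on the log2 scale, was larger than that after FOXD3 loss, 0.74 ± 0.10, by 1.96 ± 0.14 (edgeR adjusted p = 2.1e-05).

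Of the remaining 4 genes called after FOXD3 loss in the joint fit, Pla2g1b and Nectin4 lay near the borders between classes. Pla2g1b, a secreted phospholipase (chromosome 5, 115466262 to 115474722, plus strand), was the FOXD3-specific gene. It had 12.5 and 14.8 CPM with 4HT, against 26.5 and 28.6 CPM with EtOH, and 21.2 and 21.0 CPM with DOX, against 25.4 and 26.6 CPM with H2O. Its FOXD3 response of -1.01 ± 0.11 (edgeR adjusted p = 0.031) exceeded its OCT4 response of -0.30 ± 0.11 (adjusted p = 0.055) by a called difference of -0.70 ± 0.16 (adjusted p = 0.013). The OCT4 response missed the threshold narrowly, with the DOX libraries below both H2O libraries. Nectin4, a cell adhesion receptor (chromosome 1, 171370099 to 171388598, plus strand), was the opposite gene, with 4.24 and 4.40 CPM with 4HT, against 1.56 and 1.77 CPM with EtOH, and 0.457 and 0.341 CPM with DOX, against 0.685 and 0.907 CPM with H2O. Its responses were 1.38 ± 0.19 and -0.97 ± 0.33 (edgeR adjusted p = 0.047 and 0.046), and the difference was 2.35 ± 0.39 (adjusted p = 0.0027). The unresolved genes, named after their values were seen, were Gm36287 and Gm26517. Gm26517, which overlaps Heatr5a on the opposite strand, had 1.14 and 1.2 CPM with 4HT and was at 0 in both EtOH libraries. It had 0 and 0.0379 CPM with DOX and 0 in both H2O libraries. With every control library at 0, its difference of 5.67 had an SE of 8300. The test of the difference therefore could not place Gm26517 in a class.

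**Figure D1:**
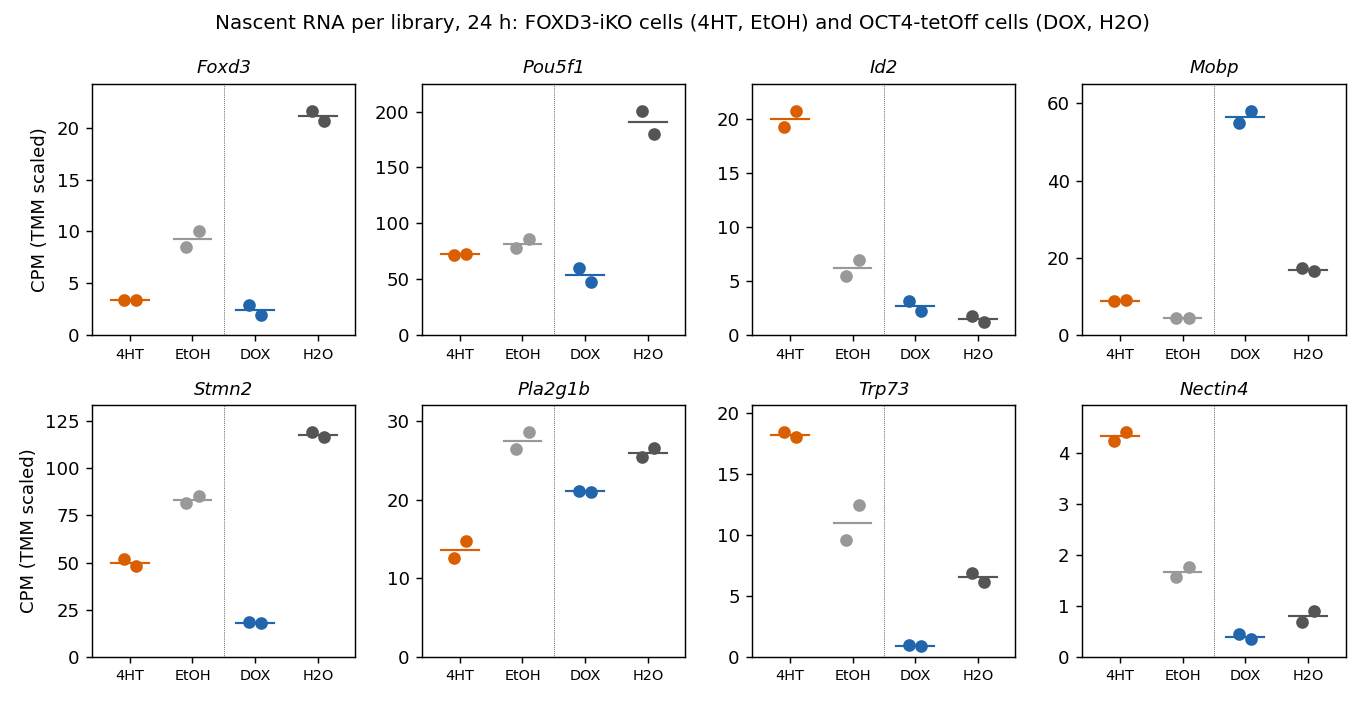
Nascent RNA of 8 genes in each library (dots; y axis, CPM after TMM scaling, from 0) with the mean of each group of 2 (bars), for 4HT and EtOH in FOXD3-iKO cells and DOX and H2O in OCT4-tetOff cells. Foxd3 and Stmn2 lay lower and Id2 and Mobp higher in the depleted libraries of both experiments, whereas Trp73 had 18.4 and 18 CPM with 4HT, above EtOH, and 0.984 and 0.871 CPM with DOX, below H2O.

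The same 4 group means were also fitted together with the other cycling libraries of both tables, which raises the residual degrees of freedom from 4 to 12 and leaves the 24 h libraries compared unchanged. In this fit of 24 libraries 129 genes were called after FOXD3 loss (0.669% of 19275 tested), 107 higher and 22 lower (0.555 and 0.114%), and they included all 11 genes of the joint fit. After OCT4 loss 7399 genes were called (38.4%), 3784 higher and 3615 lower (19.6 and 18.8%), and the difference was called for 4029 (20.9%). The genes called after FOXD3 loss fell into 60 shared (42 higher and 18 lower), 26 opposite (24 higher and 2 lower after FOXD3 loss), 25 FOXD3-specific (24 higher and 1 lower) and 18 unresolved genes. Shared genes made up 46.5% of the genes called after FOXD3 loss and 0.811% of those called after OCT4 loss, and opposite genes 20.2 and 0.351%. Leaving out a single 4HT library gave 36 or 11 genes called after FOXD3 loss, leaving out a single EtOH library 11 or 15, and removing the trend with gene length 442. Without H2O replicate 1, 4642 genes were called after OCT4 loss, and the difference was called for 2685 genes without that library, 2629 without 4HT replicate 2 and 2662 without EtOH replicate 1. Pla2g1b changed class in this fit and became shared (OCT4 response -0.27 ± 0.09, edgeR adjusted p = 0.024), and Nectin4 became FOXD3-specific (OCT4 response -0.94 ± 0.48, adjusted p = 0.13). The classes of the 129 genes are described below from this fit.

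**Figure D2:**
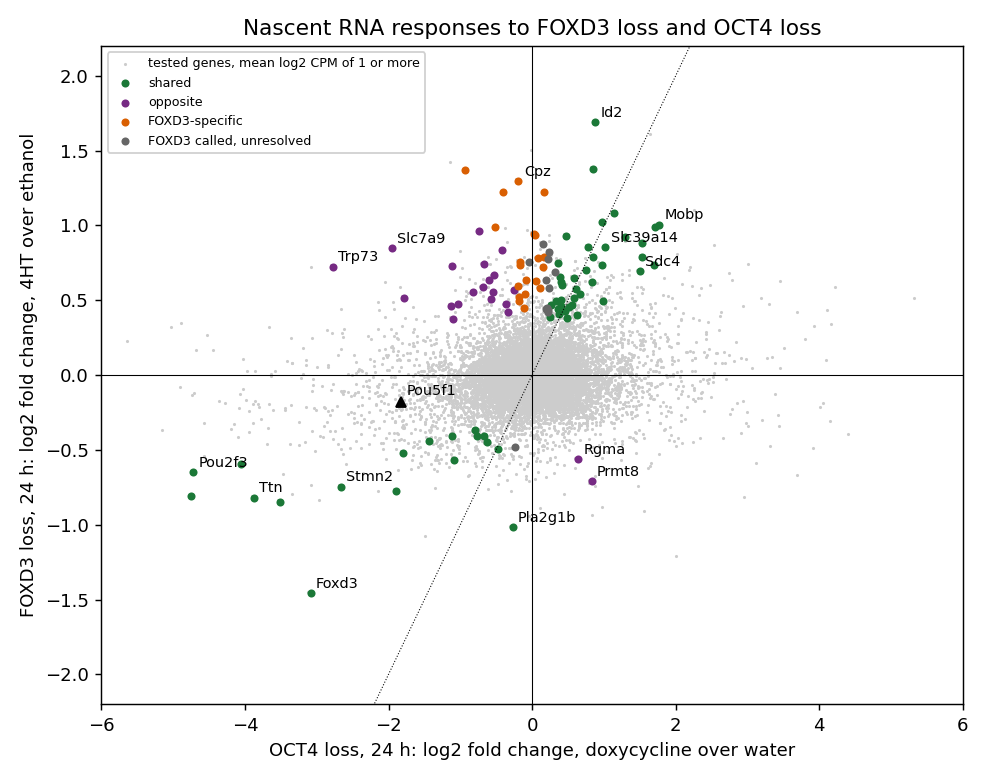
Log2 fold change after FOXD3 loss (y axis, 4HT over ethanol) against that after OCT4 loss (x axis, doxycycline over water) at 24 h for tested genes with a mean log2 CPM of 1 or more. Grey dots are from the joint fit of 8 libraries, and coloured dots are the genes called after FOXD3 loss in the fit of 24 libraries by class; the dotted line marks equal responses. The cloud is wider along the OCT4 axis, and called genes lie in the shared quadrants, the opposite quadrants and near the vertical axis. Of the 60 shared and 26 opposite genes, any under the CPM limit are not drawn. Mup6, with an OCT4 response of -7.25, lies beyond the end of the x axis.

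Shared genes that rose had a median FOXD3 response of 0.676 and a median OCT4 response of 0.716 (log2, 42 genes), values that the sorting itself fixed in sign. Plk2, a polo-like kinase, had 68.6 and 73.2 CPM with 4HT, against 34.2 and 35.1 CPM with EtOH, and 81.0 and 60.5 CPM with DOX, against 42.3 and 31.2 CPM with H2O. Its responses of 1.02 ± 0.17 and 0.97 ± 0.17 (edgeR adjusted p = 0.0068 and 0.00018) were nearly equal, with a difference of 0.05 ± 0.24. Mdm2, the ubiquitin ligase that holds p53 in check, is among the genes picked with their values in view and had 377 and 383 CPM with 4HT, against 243 and 238 CPM with EtOH, and 353 in both DOX libraries, against 242 in both H2O libraries. The Mdm2 responses were 0.65 ± 0.08 and 0.58 ± 0.08 (edgeR adjusted p = 0.00072 and 1.5e-05), again alike in size, with a difference of 0.07 ± 0.11. Sec14l5, a member of the SEC14 family of lipid-binding proteins, started from different levels in the 2 lines, with 4.28 and 4.89 CPM with 4HT, against 2.69 and 2.05 CPM with EtOH, and 18.5 and 16.6 CPM with DOX, against 6.98 and 7.59 CPM with H2O. It rose by 0.92 ± 0.20 and 1.30 ± 0.16 (edgeR adjusted p = 0.038 and 3.4e-06). Tshr, the thyrotropin receptor, and Tap1, a peptide transporter of antigen presentation, rose by 1.08 ± 0.20 and 0.88 ± 0.17 after FOXD3 loss and by 1.13 ± 0.23 and 1.53 ± 0.18 after OCT4 loss. Parp10, an ADP-ribosyltransferase whose interval overlaps that of Plec on the same strand, rose by 0.99 ± 0.18 and 1.72 ± 0.24. Sdc4, a cell-surface proteoglycan also named after its values were seen, was among the 20 shared genes with a called difference, with responses of 0.69 ± 0.08 and 1.5 ± 0.08 that differed by -0.80 ± 0.12 (edgeR adjusted p = 6.9e-05).

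Shared genes that fell were in general lowered further by OCT4 loss: over the 18 genes the median response was -0.582 after FOXD3 loss and -1.62 after OCT4 loss. The 18 include Foxd3, the gene depleted in the first experiment. Ttn, the gene of the muscle protein titin and a very long gene, had 92.4 and 96.6 CPM with 4HT, against 163 and 167 CPM with EtOH, and 6.74 and 5.57 CPM with DOX, against 101 and 84.1 CPM with H2O. Its responses were -0.82 ± 0.11 and -3.88 ± 0.13, and the difference of 3.06 ± 0.17 was called (edgeR adjusted p = 6.2e-10). Pou2f3, a POU factor known from tuft cells, had 24.9 and 22.7 CPM with 4HT, against 37.8 and 36.4 CPM with EtOH, and 0.351 and 0.265 CPM with DOX, against 7.66 and 9.41 CPM with H2O. Its FOXD3 response of -0.65 ± 0.11 (edgeR adjusted p = 0.0068) stood beside an OCT4 response of -4.73 ± 0.21 (adjusted p = 1.2e-11). Sult6b1, a sulfotransferase, and Crmp1, a cytosolic phosphoprotein of growing axons, had FOXD3 responses of -0.57 ± 0.11 and -0.52 ± 0.12 and OCT4 responses of -1.09 ± 0.12 and -1.80 ± 0.31. Aldh18a1, which makes the precursor of proline, was an exception, with 36.3 and 35.3 CPM with 4HT, against 47.3 and 53.1 CPM with EtOH, and 27.8 and 27.6 CPM with DOX, against 38.7 and 40.3 CPM with H2O. It fell by 0.50 ± 0.08 and 0.48 ± 0.09, a difference of -0.02 ± 0.12. Gfpt2, an enzyme of hexosamine synthesis that was likewise picked with its values in view, had 21.4 and 21.2 CPM with 4HT, against 29.3 and 26.6 CPM with EtOH, and 40.4 and 46 CPM with DOX, against 69.4 and 71.1 CPM with H2O.

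Of the 26 opposite genes 24 were raised by FOXD3 loss and lowered by OCT4 loss, and the difference was called for all 26. These 24 are 22.4% of the genes raised by FOXD3 loss, near the 18.8% of all tested genes lowered by OCT4 loss. The shared genes are 39.3% of the genes raised by FOXD3 loss, beside 19.6% of all tested genes called higher after OCT4 loss. They are 81.8% of the lowered ones, the depleted gene Foxd3 among these, beside 18.8% of all tested genes called lower after OCT4 loss. Trp73, a relative of p53 (chromosome 4, 154056253 to 154140208, minus strand, with Trp73os on the opposite strand inside it), had 18.4 and 18 CPM with 4HT, against 9.59 and 12.4 CPM with EtOH, and 0.984 and 0.871 CPM with DOX, against 6.85 and 6.16 CPM with H2O. Its responses of 0.73 ± 0.12 and -2.77 ± 0.19 differed by 3.5 ± 0.23 (edgeR adjusted p = 4.4e-09), and no treated library overlapped its controls. Slc7a9, a subunit of the cystine transporter of kidney and gut, had 4.28 and 4.79 CPM with 4HT, against 2.75 and 2.2 CPM with EtOH, and 0.386 and 0.530 CPM with DOX, against 1.73 and 1.91 CPM with H2O. The responses of Slc7a9 were 0.85 ± 0.17 and -1.95 ± 0.27, and their difference was 2.80 ± 0.32 (edgeR adjusted p = 3.8e-06). Cnga3, a channel subunit of cone photoreceptors, had 19.3 and 19.8 CPM with 4HT, against 11.4 and 12 CPM with EtOH, and 3.02 and 3.37 CPM with DOX, against 7.10 and 7.07 CPM with H2O. Smaller but likewise opposite were Ddit4l, an inhibitor of mTOR signalling (0.74 ± 0.15 and -0.67 ± 0.16), the receptor phosphatase gene Ptprv (0.64 ± 0.14 and -0.60 ± 0.15) and the zinc finger gene Zfp365 (0.55 ± 0.08 and -0.82 ± 0.08). Mup6, a major urinary protein gene of a family of near-identical copies, had 9.20 and 9.78 CPM with 4HT, against 5.07 and 4.87 CPM with EtOH, and 0 and 0.0379 CPM with DOX, against 3.02 and 4.25 CPM with H2O.

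The reverse pattern was seen for Prmt8 and Rgma, which fell after FOXD3 loss and rose after OCT4 loss. Prmt8, an arginine methyltransferase of the nervous system (chromosome 6, 127689011 to 127769472, minus strand), had 25.9 and 24.4 CPM with 4HT, against 40.1 and 41.5 CPM with EtOH, and 188 and 220 CPM with DOX, against 108 and 127 CPM with H2O. Its responses of -0.71 ± 0.11 and 0.83 ± 0.10 differed by -1.54 ± 0.15 (edgeR adjusted p = 5.5e-07). Rgma, a co-receptor of bone morphogenetic protein signals (chromosome 7, 73375509 to 73419899, plus strand), had 12.4 and 11.7 CPM with 4HT, against 17.5 and 17.8 CPM with EtOH, and 32.7 and 33.5 CPM with DOX, against 21.1 and 22.4 CPM with H2O. The Rgma responses were -0.56 ± 0.09 and 0.64 ± 0.09.

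FOXD3-specific genes were with 1 exception (Elobl) higher with 4HT, by a median of 0.785 on the log2 scale over 24 genes, beside a median OCT4 response of -0.134. Cpz, a secreted carboxypeptidase, had 8.22 and 9.15 CPM with 4HT, against 3.57 and 3.44 CPM with EtOH, and 0.808 and 0.833 CPM with DOX, against 1.25 and 0.621 CPM with H2O. It rose by 1.30 ± 0.21 (edgeR adjusted p = 0.0068), and its OCT4 response of -0.19 ± 0.38 (adjusted p = 0.72) came with overlapping libraries and low counts. Ltb4r2, a leukotriene B4 receptor, had 3.18 and 3.20 CPM with 4HT, against 1.29 and 1.43 CPM with EtOH, and 1.26 and 1.14 CPM with DOX, against 1.13 and 1.05 CPM with H2O. Its control levels were close in the 2 lines, and it rose by 1.22 ± 0.18 after FOXD3 loss, with an OCT4 response of 0.17 ± 0.22 and a difference of 1.05 ± 0.29 (edgeR adjusted p = 0.0044, 0.64 and 0.015). Scn3b, a sodium channel subunit, had 6.40 and 6.12 CPM with 4HT, against 3.09 and 3.39 CPM with EtOH, and 3.37 and 3.94 CPM with DOX, against 4.07 and 3.25 CPM with H2O. Its difference of 0.92 ± 0.24 was called (edgeR adjusted p = 0.01). Zfp750, a transcription factor of epidermal differentiation, the ankyrin repeat gene Ankrd65 and the membrane transporter gene Slc4a11 rose by 0.94 ± 0.17, 1.22 ± 0.19 and 0.78 ± 0.15. The OCT4 response lay within 0.25 of 0 for 19 of the 25, and a missed threshold does not show for the others that OCT4 loss left them as they were.

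Promoter sequence from RefSeq (GRCm38.p6, the window of 250 bases before the start nearest to the gene's start in the count tables) was searched on both strands for the octamer ATGCAAAT bound by POU factors and for the forkhead cores TGTTTAC and TGTTTGT. Among the 12834 tested genes with a window, 1.36% held the octamer, 2.25% TGTTTAC and 4.08% TGTTTGT. Of the 107 genes called higher after FOXD3 loss 73 had a window, and 4 of these held the octamer (5.48%), 3 TGTTTAC and 3 TGTTTGT (4.11% each). Of the 22 called lower 16 had a window, 1 with TGTTTAC and none with the octamer or TGTTTGT. Among OCT4-specific genes the octamer stood in 2.14% of the 1076 windows of lowered and in 1.85% of the 1026 windows of raised genes. The windows shown are that of Foxd3, the gene lowered in both experiments, and those of members that hold a match from each class: Sec14l5, Mdm2 and Gfpt2 (shared), Prrg4 (opposite), Ankrd65 (FOXD3-specific) and Gadd45g (OCT4-specific). They were chosen after the matches were seen, a match is a run of letters and not a site shown to be bound, and the Foxd3 window held none of the 3 motifs. Each is printed 5′ to 3′ on the gene's strand, with the octamer or forkhead core, or its reverse complement, in capitals. The RefSeq start used for Ankrd65 lies 733 bases inside the gene's interval in the count tables, so its window lies within the counted gene. For the other windows shown the starts lie within 26 bases of each other.
Foxd3, chr4:99656049-99656298, plus strand: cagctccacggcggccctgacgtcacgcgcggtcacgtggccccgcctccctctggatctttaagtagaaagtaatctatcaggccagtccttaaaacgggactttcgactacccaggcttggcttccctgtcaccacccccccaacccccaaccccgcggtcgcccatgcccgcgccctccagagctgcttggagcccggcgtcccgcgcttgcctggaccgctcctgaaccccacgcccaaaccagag
Sec14l5, chr16:5146859-5147108, plus strand: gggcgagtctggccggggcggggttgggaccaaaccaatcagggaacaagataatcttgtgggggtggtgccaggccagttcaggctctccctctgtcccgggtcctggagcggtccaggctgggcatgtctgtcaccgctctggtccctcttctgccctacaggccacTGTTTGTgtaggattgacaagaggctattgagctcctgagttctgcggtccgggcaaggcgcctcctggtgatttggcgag
Mdm2, chr10:117710759-117711008, minus strand: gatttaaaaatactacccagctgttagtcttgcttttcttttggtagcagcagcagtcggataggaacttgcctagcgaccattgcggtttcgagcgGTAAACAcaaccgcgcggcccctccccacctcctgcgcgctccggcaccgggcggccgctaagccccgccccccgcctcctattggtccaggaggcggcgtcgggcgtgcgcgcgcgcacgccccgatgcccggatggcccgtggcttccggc
Gfpt2, chr11:49793905-49794154, plus strand: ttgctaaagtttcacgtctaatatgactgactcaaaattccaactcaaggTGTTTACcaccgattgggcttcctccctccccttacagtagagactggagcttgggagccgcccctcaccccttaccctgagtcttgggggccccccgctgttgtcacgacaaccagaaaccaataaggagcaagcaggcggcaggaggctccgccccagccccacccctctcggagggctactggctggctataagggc
Prrg4, chr2:104849851-104850100, minus strand: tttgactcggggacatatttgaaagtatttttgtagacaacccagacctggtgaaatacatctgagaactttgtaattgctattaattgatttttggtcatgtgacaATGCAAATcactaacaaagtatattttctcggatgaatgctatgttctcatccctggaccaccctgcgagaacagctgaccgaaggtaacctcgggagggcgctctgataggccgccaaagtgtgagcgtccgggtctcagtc
Ankrd65, chr4:155790922-155791171, plus strand: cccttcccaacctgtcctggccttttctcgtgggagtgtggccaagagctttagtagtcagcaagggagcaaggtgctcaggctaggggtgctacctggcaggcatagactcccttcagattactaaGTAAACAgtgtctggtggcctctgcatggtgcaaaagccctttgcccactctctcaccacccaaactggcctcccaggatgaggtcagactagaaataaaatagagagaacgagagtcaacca
Gadd45g, chr13:51846425-51846674, plus strand: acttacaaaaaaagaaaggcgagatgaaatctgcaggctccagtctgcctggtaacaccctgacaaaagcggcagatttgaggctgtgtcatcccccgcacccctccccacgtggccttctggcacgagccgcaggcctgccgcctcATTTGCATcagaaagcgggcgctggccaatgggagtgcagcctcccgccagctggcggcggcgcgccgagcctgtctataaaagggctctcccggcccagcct

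Genes changed by OCT4 loss alone at this threshold made up nearly all of the called differences. In the joint fit the most strongly raised were Kcnc1, a potassium channel gene (5.32 ± 0.19 after OCT4 loss), Gadd45g, a stress-response gene (4.40 ± 0.19), the nuclear receptor gene Rorb (4.22 ± 0.28) and Peg10, an imprinted gene derived from a retrotransposon (4.16 ± 0.16). Gadd45g had 0.805 and 0.458 CPM with 4HT, against 0.850 and 0.764 CPM with EtOH, and 33.5 and 28.4 CPM with DOX, against 1.37 and 1.58 CPM with H2O. Peg10 had 16.0 and 16.8 CPM with 4HT, against 12.5 and 13.4 CPM with EtOH, and 1209 and 936 CPM with DOX, against 61.8 and 58.4 CPM with H2O. Its FOXD3 response was 0.34 ± 0.15 (edgeR adjusted p = 0.71), and the difference of -3.81 ± 0.22 was called (adjusted p = 9.3e-06). Gata6, a regulator of primitive endoderm, rose by 4.1 ± 0.16 after OCT4 loss beside a FOXD3 response of 0.43 ± 0.14 (adjusted p = 0.45). On the lowered side stood Aoah, an enzyme that inactivates bacterial lipopolysaccharide, with 111 and 93.2 CPM with 4HT, against 90.5 and 85.2 CPM with EtOH, and 0.597 and 0.530 CPM with DOX, against 48.7 and 51.2 CPM with H2O. Aoah fell by 6.45 ± 0.17 after OCT4 loss, and its FOXD3 response was 0.22 ± 0.11. For 2144 of the 2938 OCT4-specific genes the FOXD3 response lay within 0.25 of 0 on the log2 scale.

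Across all tested genes the 2 responses leaned the same way, weakly. The FOXD3 and OCT4 log2 fold changes, which share no library, had a Spearman correlation of 0.124 over 18437 genes, which are not independent replicates. Genes called higher after OCT4 loss had a median FOXD3 response of 0.0193 and genes called lower one of -0.0442, against -0.0116 over all tested genes. Among OCT4 calls of more than 2-fold, these medians were 0.0658 (1167 genes raised) and -0.117 (1372 genes lowered). Of the 794 genes higher after FOXD3 loss at an unadjusted p under 0.05, 28.3% were called higher and 15.7% lower after OCT4 loss, beside 16.7 and 17.6% of all tested genes. Of the 493 lower genes 12.8% were called higher and 41.8% lower after OCT4 loss. Gene length moved with the OCT4 response (Spearman correlation 0.301) and with the difference (-0.298) but hardly with the FOXD3 response (-0.0433), so long genes lay higher after OCT4 loss. With the length trend removed 57 of 58 called values of genes named from the joint fit kept their direction and their side of the threshold. In the fit of 24 libraries 56 of 60 shared, 23 of 26 opposite and 22 of 25 FOXD3-specific genes stayed in their class.

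The pluripotency network separated the 2 depletions. Of 13 tested core pluripotency genes 11 fell and 1 rose after OCT4 loss, beside 17.6 and 16.7% of all tested genes. None was called after FOXD3 loss in either fit, beside 0.0597% of all tested genes in the joint fit and 0.669% in the fit of 24 libraries. The difference was called higher for 8 and lower for 1, beside 9.08 and 7.4% of all tested genes. Their median responses were -0.0765 after FOXD3 loss and -0.821 after OCT4 loss. L1td1, an RNA-binding protein gene of ESCs, had 212 and 235 CPM with 4HT, against 238 and 244 CPM with EtOH, and 42.2 and 39.7 CPM with DOX, against 228 and 210 CPM with H2O. Utf1, a chromatin-associated factor of ESCs, and Tdgf1, a Nodal co-receptor, had OCT4 responses of -4.36 and -2.05, beside FOXD3 responses of -0.17 and 0.17. Lin28a, which blocks let-7 maturation, was the member that rose, by 2.35 after OCT4 loss, with a FOXD3 response of -0.16. Of 18 naive pluripotency genes 14 fell and 1 rose after OCT4 loss, and the difference was called higher for 14, with medians of -0.021 and -1.36. Tcl1, a cofactor of AKT, Klf5, Gbx2 and Zfp42, transcription factors of naive cells, had OCT4 responses of -4.09, -1.73, -3.35 and -1.78 and FOXD3 responses between -0.22 and 0.10. Of 16 formative and primed epiblast genes 9 fell and 3 rose after OCT4 loss, among them Otx2 (-2.25) and Lef1 (2.34), while Foxd3 itself was the only member called after FOXD3 loss.

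Most lists of other lineages held more genes raised than lowered by OCT4 loss, where 16.7% of all tested genes rose and 17.6% fell. The two-cell-like list, with none higher and 1 lower, and the 11 mesoderm and primitive streak genes were exceptions, the mesoderm list with 2 higher and 4 lower after OCT4 loss and medians of 0.223 after FOXD3 loss and -0.935 after OCT4 loss. Of 16 primitive endoderm genes 9 rose and 2 fell after OCT4 loss (medians 0.151 after FOXD3 loss and 0.809 after OCT4 loss), and none was called after FOXD3 loss. Col4a1, a basement membrane collagen, had 32.1 and 30.9 CPM with 4HT, against 32.3 and 32.0 CPM with EtOH, and 98.9 and 110 CPM with DOX, against 16.5 and 21.2 CPM with H2O. Of 21 trophectoderm genes 11 rose and 3 fell after OCT4 loss, with Gata3 and the keratin gene Krt7 raised by 2.32 and 3.80 and Tfap2a and Bmp4 lowered by 1.71 and 1.84 on the log2 scale. Tfap2c, a trophectoderm and germline factor, was the member called after FOXD3 loss in the fit of 24 libraries and was shared, with 50.9 and 55.9 CPM with 4HT, against 32.0 and 31.6 CPM with EtOH, and 69.4 and 54.3 CPM with DOX, against 31.6 and 32.7 CPM with H2O (responses 0.74 ± 0.13 and 0.97 ± 0.13). Of 18 germline genes 11 rose and 1 fell, of 21 imprinted genes 11 rose and 1 fell, and of 10 neural crest genes 6 rose after OCT4 loss. No member of the neural crest list was called after FOXD3 loss in either fit. Of all tested genes 0.0597% were called in the joint fit and 0.669% in the fit of 24 libraries. At these shares a list of this size would seldom hold a called gene, so the absence of calls does not set it apart. The 12 tested two-cell-like genes stood apart in their FOXD3 response, with a median of 0.578 and 11 members above 0, beside a median OCT4 response of 0.00291 that changed sign with total counts outside the ribosomal RNA genes as the scale (-0.076). Their levels were low, the Zscan4 members share near-identical copies, and Zfp750 was the member called after FOXD3 loss, in the fit of 24 libraries.

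Targets of p53 were the list with the most members called higher after FOXD3 loss, 7 of 32 in the fit of 24 libraries beside 0.555% of all tested genes, and these 7 did not respond alike to OCT4 loss. Mdm2, Plk2, Trp53inp1 and Ercc5 were shared, Trp73 was opposite, Perp, a junction protein, was FOXD3-specific and Btg2, an antiproliferative gene, was unresolved. All but Plk2 and Trp73 were named after their values were seen. Trp53inp1, a p53 cofactor, had 419 and 409 CPM with 4HT, against 280 and 262 CPM with EtOH, and 387 and 347 CPM with DOX, against 307 and 257 CPM with H2O. Perp had 9.24 and 7.67 CPM with 4HT, against 4.93 and 4.97 CPM with EtOH, and 6.04 and 4.88 CPM with DOX, against 7.30 and 5.25 CPM with H2O. In the joint fit no p53 target was called after FOXD3 loss, 28 of 32 lay above 0 and the median was 0.304, and after OCT4 loss 7 rose and 7 fell (16.7 and 17.6% of all tested genes) with a median of 0.223. Cdkn1a, the cell cycle inhibitor p21, rose by 1.34 ± 0.13 after OCT4 loss (558 and 474 CPM with DOX, against 204 and 203 CPM with H2O), beside a FOXD3 response of 0.24 (218 and 238 CPM with 4HT, against 187 and 200 CPM with EtOH). Trp53 itself fell by 0.83 ± 0.12 after OCT4 loss and had a FOXD3 response of 0.09.

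Amino acid and stress genes were called lower mainly after OCT4 loss. Of 31 genes of the integrated stress response, the programme run by ATF4, 16 fell and 2 rose after OCT4 loss (17.6 and 16.7% of all tested genes). In each response only 5 of the 31 lay above 0. The difference was called higher for 8 and lower for 1, beside 9.08 and 7.4% of all tested genes. For most of the 31 the 2 responses were thus not told apart. None was called after FOXD3 loss in the joint fit and 4 fell in the fit of 24 libraries (0.114% of all tested genes fell), with joint-fit medians of -0.259 and -0.505. The 4 were Aldh18a1, Gpt2, Phgdh and Psat1, enzymes of proline, alanine and serine synthesis, all shared and, except Aldh18a1, named after their values were seen. Phgdh, which commits glycolytic carbon to serine, had 27.1 and 29 CPM with 4HT, against 36.9 and 36.8 CPM with EtOH, and 11 and 11.1 CPM with DOX, against 23.4 and 25.4 CPM with H2O. Its responses of -0.40 ± 0.08 and -1.11 ± 0.09 differed by 0.71 ± 0.12 (edgeR adjusted p = 0.00042). Slc7a3, an arginine and lysine transporter, and Cth, an enzyme of cysteine synthesis, were OCT4-specific, with OCT4 responses of -4.28 and -1.46 and FOXD3 responses of -0.19 and 0.09. Slc7a11, the cystine transporter, rose by 2.44 after OCT4 loss. Of 25 tested glycolysis genes 15 fell and 5 rose after OCT4 loss, and none was called after FOXD3 loss.

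Cell cycle and growth genes fell after OCT4 loss, where 17.6% of all tested genes fell. Of 42 DNA replication genes 38 fell and none rose, with medians of 0.00138 after FOXD3 loss and -0.65 after OCT4 loss. The difference was called higher for 29, beside 9.08% of all tested genes. Rrm2, a subunit of ribonucleotide reductase, had 122 and 140 CPM with 4HT, against 105 and 110 CPM with EtOH, and 58.9 and 43 CPM with DOX, against 142 and 120 CPM with H2O. Of 28 genes of G2 and mitosis 21 fell, and of 27 genes of ribosome biogenesis 17 fell, after OCT4 loss, with none raised and none called after FOXD3 loss. Replication-dependent histone genes, short intronless genes of S phase, fell for 53 of 59 members after OCT4 loss. The difference was called for 11, all higher on the FOXD3 side, beside 16.5% of all tested genes in either direction. For most of these histone genes the 2 responses were thus not told apart. Their median was -0.464 after FOXD3 loss and -1.33 after OCT4 loss, and -0.308 and -0.808 with the trend of gene length removed. Cytosolic ribosomal protein genes fell for 66 of 81 members after OCT4 loss, with a median of -0.547 that became -0.27 without the length trend. Mitochondrially encoded transcripts fell for 6 of 18, with a median of -0.623 that became 0.0067 without that trend. The difference was called higher for 7 of the 81 ribosomal protein genes and 0 of the 18 mitochondrial transcripts, beside 9.08% of all tested genes. No member of these 2 lists had a difference called lower. For most of their members, too, the 2 responses were not told apart. Mitochondrial genes held 0.97 and 1.05% of the libraries with 4HT, against 1.19 and 1.23% with EtOH. They held 0.705 and 0.466% with DOX, against 0.951 and 0.608% with H2O. The share was thus lower with 4HT than with EtOH, whereas the DOX and H2O libraries overlapped. It counts the mitochondrially encoded transcripts themselves, and its part in the result was not tested.

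**Figure D3:**
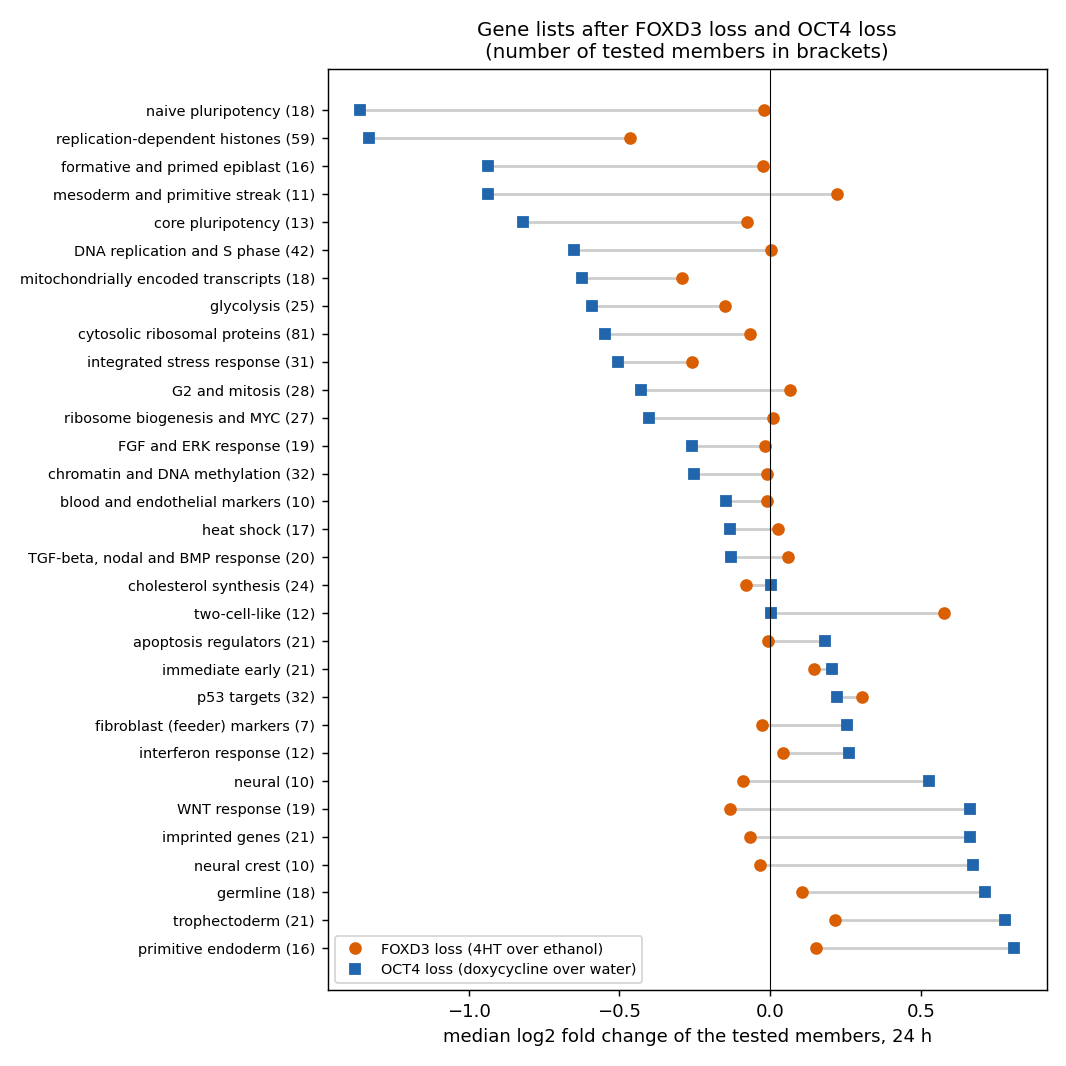
Median log2 fold change of the tested members of each gene list after FOXD3 loss (circles, 4HT over ethanol) and after OCT4 loss (squares, doxycycline over water), joint fit of 8 libraries, sorted by the OCT4 median. Pluripotency and histone lists lie far to the left for OCT4 loss, down to a median of -1.36, while most FOXD3 medians lie near 0; the two-cell-like list is at 0.578 after FOXD3 loss.

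The classes were followed at other times and in a second culture state of the series, in libraries that the 24 h values did not use, although the cycling ones helped to set the spread of the fit of 24 libraries. Of the 42 shared genes that rose 40 were called higher 32 h after 4HT (4.88% of all genes tested were, and 9.47% in either direction), and of the 18 that fell 16 were called lower (4.59%). At 16 h of OCT4 loss 19 of the 42 were called higher (7.94% of all genes tested) and 15 of the 18 lower (8.91%). The second state is FOXD3-iKO cells 0 to 5 h after release from a thymidine block, the 0 h libraries included, called the released cells here. They were labelled for 15 min, against 30 min for the cycling cells. In the released cells 22 of the 42 were called higher and 1 lower, and 15 of the 18 lower. Of all genes tested there 18.6% were called higher and 18.4% lower. Of the 24 opposite genes raised by FOXD3 loss 23 were called higher at 32 h of FOXD3 loss and 13 lower at 16 h of OCT4 loss. All 24 FOXD3-specific genes that were higher with 4HT were called higher at 32 h, with a median of 1.44, and none of the 23 tested at 16 h of OCT4 loss was called in either direction, with a median of -0.186. In the released cells 8 of these 24 were called higher and 1 lower, beside a median of 0.0457. Elobl, the lowered FOXD3-specific gene, was not called at 32 h (-0.119). At 8 and 14 h after 4HT the medians of the same classes lay between 0.0591 and 0.314 for raised genes, and 1 of the 42 shared raised genes was called at each time.

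Single genes differed in their timing. Id2 was already raised at 8 and 14 h after 4HT, by 1.2 and 1.18 on the log2 scale, and Pla2g1b lowered by 0.98 and 1.06, at times when 0.00535% of all genes tested were called lower (0.00535% higher at 8 h, and 0.016% in either direction at 14 h). Trp73 had responses of 0.14, 0.33 and 1.52 at 8, 14 and 32 h of FOXD3 loss, and of -2.44 at 16 h of OCT4 loss. Slc39a14 had 1.44 at 32 h of FOXD3 loss (edgeR adjusted p = 1.7e-06) and -0.03 at 16 h of OCT4 loss (adjusted p = 0.92), before its rise at 24 h. Prmt8 had -0.87 at 32 h and -0.96 in the released cells without FOXD3, and 0.86 at 16 h of OCT4 loss, all called.

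The OCT4-specific genes kept their direction at the earlier OCT4 time: of 1339 raised genes tested 829 were called higher at 16 h and none lower, and of 1566 lowered genes 1022 were called lower and none higher. At 16 h of OCT4 loss 7.94% of all genes tested were called higher and 8.91% lower. At 32 h of FOXD3 loss 96 of 1302 raised genes were called higher and 43 lower, and of 1587 lowered genes 129 were called higher and 207 lower. The shares called at 32 h were 7.37% higher and 3.3% lower among the raised genes, and 8.13% higher and 13% lower among the lowered genes, beside 4.88% higher and 4.59% lower among all genes tested.

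**Figure D4:**
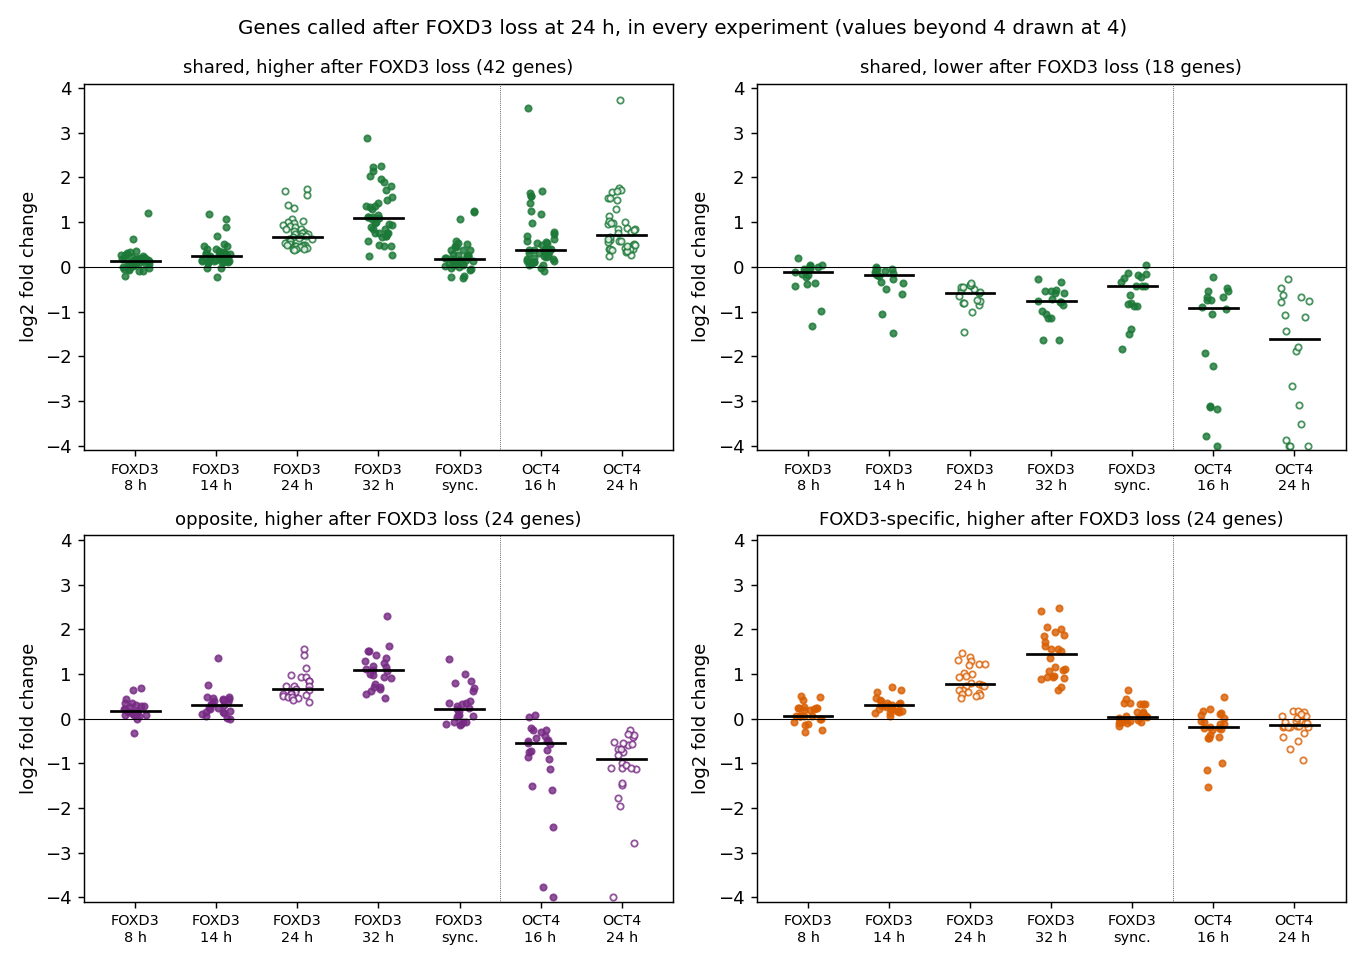
Log2 fold changes (y axis) of the genes called after FOXD3 loss at 24 h in the fit of 24 libraries, by class, in each experiment of the series. The x axis holds FOXD3 loss at 8, 14, 24 and 32 h in cycling cells. Next come FOXD3 loss in cells 0 to 5 h after release from a thymidine block and OCT4 loss at 16 and 24 h. Each dot is a gene and each bar the median; open dots are the 24 h values used for sorting. Medians of the raised classes reach 1.08 to 1.44 at 32 h of FOXD3 loss, and the opposite genes raised by FOXD3 loss have a median of -0.553 at 16 h of OCT4 loss.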

How the data were processed

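Per the submitters' processing notes the authors used STAR, featureCounts and the mouse build mm10. The sources do not give versions, whether strand was used, or what became of reads matching several genes, and overlapping, antisense and near-identical genes therefore have uncertain values. The deposited values are raw counts per gene for 54752 genes in tables of 16, 8 and 24 libraries, without molecular identifiers. In each row the length equals end minus start plus 1, so introns were counted as well. Counting limits given in CPM cover counting error only.

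Differential transcription was tested in R 4.3.3 with edgeR 4.0.16 (limma 3.58.1). The filter was filterByExpr with a minimum count of 10 and the scaling TMM, followed by glmQLFit and glmQLFTest on 4 group means without covariates. Benjamini-Hochberg adjustment ran over all genes tested, and genes were called at an adjusted p under 0.05. Standard errors are |log2 ratio| over the root of F. CPM values are after TMM scaling. Calls at other times came from a fit of each table as a whole, with release time as a covariate for the released cells. DESeq2 1.42.0 was an alternative. Other alternatives were the scaling, the low-count filter, the trend with gene length, the libraries fitted, the replicate block, the threshold and leaving out each library. Within groups chi-square per degree of freedom was 5.57 to 30, so no library was a copy of another.

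Named genes were, for each class and direction, the 8 largest that averaged 1 or more in log2 CPM, carry no provisional symbol and show no overlap between groups. From each gene list the members with the smallest p of the difference were named, and Foxd3 and Pou5f1 were always given. Some genes that these rules name are not reported here. Gene identifiers were matched to RefSeq (54723 of 54752, ignoring versions), and promoter windows are of GRCm38.p6. The comparison and the 31 gene lists were chosen with earlier results of these data known.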

Additional observations from a re-analysis of the deposited data

Results flagged for a closer look

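Nectin4 was the gene of the joint fit of 8 libraries that moved in opposite directions with a tested difference between the responses. Its log2 response was 1.38 ± 0.19 after FOXD3 loss and -0.97 ± 0.33 after OCT4 loss, a difference of 2.35 ± 0.39 (edgeR adjusted p = 0.0027). In the fit of 24 libraries its OCT4 response was -0.94 ± 0.48 and was not called (adjusted p = 0.13), and its DOX libraries held 0.457 and 0.341 CPM, against 0.685 and 0.907 CPM with H2O.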

How the results depend on the processing

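The counts called in the joint fit (difference 3039, FOXD3 loss 11, OCT4 loss 6316; 7 shared, 1 opposite, 1 FOXD3-specific, 2938 OCT4-specific) moved as follows, and the cause was not tested. With total counts alone 5 genes were called after FOXD3 loss, 3 shared and 0 opposite. With total counts outside the ribosomal RNA genes 0 were called after FOXD3 loss, so all 3 classes that need such a call held 0, and the median difference over all genes became 0.128, beside 0.0184 with TMM. Without the length trend the difference was called for 5086 genes and FOXD3 loss for 292, with 147 shared, 54 opposite, 56 FOXD3-specific and 4655 OCT4-specific. DESeq2 called 45 after FOXD3 loss (20 shared, 10 opposite, 8 FOXD3-specific), the fit without a low-count filter 220 (101, 39 and 39), and the fit of 24 libraries 129 (60, 26 and 25). Fitting each response in its own 4 libraries gave 254 after FOXD3 loss, 102 shared and 30 opposite, with no test of the difference and so no specific class. At an adjusted p under 0.01 the counts were 1331 for the difference, 0 for FOXD3 loss and 3627 for OCT4 loss, with 0 shared, 0 opposite, 0 FOXD3-specific and 1302 OCT4-specific. Under 0.10 FOXD3 loss had 24, with 15 shared, 4 opposite and 4 FOXD3-specific. With at least 2-fold the counts were 1837, 7 and 2539, with 2 shared, 0 opposite and 1584 OCT4-specific.

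The labels do not say that replicate numbers mark a shared batch, and deviations of same-numbered libraries correlated at 0.1 in FOXD3-iKO and 0.379 in OCT4-tetOff cells, over 2 pairs each. With the replicate number as a block the joint fit called 8019, 1305 and 10515 genes, with 556 shared, 422 opposite, 200 FOXD3-specific and 6752 OCT4-specific. In the fit of 24 libraries the block gave 104 genes after FOXD3 loss.

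Leaving out 1 library gave 1438 to 4860 genes for the difference, 0 to 60 for FOXD3 loss and 3753 to 7531 for OCT4 loss. The classes held 0 to 18 shared, 0 to 14 opposite, 0 to 20 FOXD3-specific and 1418 to 4629 OCT4-specific genes. A lone library of a group was assumed to vary like the other groups. FOXD3 loss had 60 genes without DOX replicate 1 and 59 without DOX replicate 2, and OCT4 loss had 3753 without H2O replicate 1. In the fit of 24 libraries the ranges were 2629 to 4714, 11 to 152 and 4642 to 7536, with 7 to 65 shared, 1 to 29 opposite, 1 to 31 FOXD3-specific and 2504 to 4451 OCT4-specific. That fit called 83 genes after FOXD3 loss with total counts alone (33 shared, 16 opposite) and 442 without the length trend (207 shared, 77 opposite, 94 FOXD3-specific).

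RLE factors moved no count by over 1.5 times. Of 58 called values of genes named from the joint fit none changed sign under any alternative. Of these 57 kept their side of the threshold in the fit of 24 libraries and 43 with total counts outside the ribosomal RNA genes. Genes named only from the fit of 24 libraries or from the gene lists were not covered. Of 96 list medians 9 changed sign without the length trend, 2 with RLE factors, 10 with total counts alone and 11 with total counts outside the ribosomal RNA genes. With 2 libraries a group and 4 residual degrees of freedom, a missed FOXD3 call does not show an unchanged gene.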

Other observations

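Signalling genes moved after OCT4 loss, and few members of these lists were called after FOXD3 loss. Of 20 genes of the TGF-beta, nodal and BMP response 5 rose and 7 fell after OCT4 loss (medians 0.0595 after FOXD3 loss and -0.131 after OCT4 loss), beside 16.7 and 17.6% of all tested genes, and Id2 was the member called after FOXD3 loss. Lefty2, an inhibitor of Nodal, had 16.6 and 19.6 CPM with 4HT, against 27.4 and 25.4 CPM with EtOH, and 0.246 and 0.265 CPM with DOX, against 6.81 and 5.54 CPM with H2O. It fell by 4.58 ± 0.26 on the log2 scale after OCT4 loss (edgeR adjusted p = 1.4e-06), beside a FOXD3 response of -0.54 ± 0.13 (adjusted p = 0.23). Id3, of the same family as Id2, went the other way from Id2 after OCT4 loss, with 2.92 and 2.46 CPM with DOX, against 23.6 and 18.7 CPM with H2O. Of 19 genes of the FGF and ERK response 2 rose and 7 fell after OCT4 loss, among them Fgf4 (-1.71), which signals between ESCs, and Dusp6 (-1.80), an ERK phosphatase, and none was called after FOXD3 loss in either fit. Of 19 genes of the WNT response 8 rose and 3 fell after OCT4 loss, with Axin2, a feedback inhibitor of the pathway, at 295 and 277 CPM with DOX, against 143 and 150 CPM with H2O, and at 59.0 and 61.3 CPM with 4HT, against 58.9 and 62.8 CPM with EtOH. Wnt3 was shared in the fit of 24 libraries and belongs to the mesoderm and primitive streak list as well. Of 21 immediate early genes 8 rose and 5 fell after OCT4 loss. As a list they leaned upwards after FOXD3 loss, with 17 of 21 above 0 (median 0.145), beside 47.1% of all tested genes. Jun, a subunit of AP-1, had 30.1 and 22.4 CPM with DOX, against 5.97 and 4.49 CPM with H2O, while Btg2 and Ccn1 were called higher after FOXD3 loss in the fit of 24 libraries, with Ccn1, a secreted matrix protein named after its values were seen, at 36.8 and 37.3 CPM with 4HT, against 23.1 and 24.4 CPM with EtOH.

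Of 21 apoptosis regulators 7 rose and 2 fell after OCT4 loss and none was called after FOXD3 loss in either fit. Bcl2l11, which encodes the death-promoting protein BIM, had 98.9 and 104 CPM with DOX, against 33.9 and 36.1 CPM with H2O, and 50.5 and 50.3 CPM with 4HT, against 44.2 and 42.4 CPM with EtOH. Its difference of -1.32 ± 0.13 was called (edgeR adjusted p = 0.00016). Of 32 chromatin and DNA methylation genes 3 rose and 11 fell after OCT4 loss, with Tet2, an enzyme that oxidises methylcytosine, at 148 and 166 CPM with DOX, against 350 and 404 CPM with H2O. Beside 16.7% of all tested genes higher and 17.6% lower after OCT4 loss, of 17 heat shock genes 1 rose and 6 fell, of 12 interferon response genes 4 rose and 2 fell, and of 24 cholesterol synthesis genes 2 rose and 2 fell, so that the cholesterol list lay below that share in both directions. Of 10 neural genes 3 rose and none fell, of 7 tested fibroblast markers 2 rose and 2 fell, and of 10 tested blood and endothelial markers 3 rose and 3 fell. None of the genes in these 6 lists was called after FOXD3 loss in either fit. Of all tested genes 0.0597% were called in the joint fit and 0.669% in the fit of 24 libraries.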
